A study of Mus musculus with 17 samples.

Results

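Slc17a1, Slc17a2, Slc17a3 and Slc17a4 are 4 genes that lie next to each other on mouse chromosome 13 and encode membrane transporters for phosphate and organic anions. They were chosen by gene symbol from a liver RNA-seq table of 24676 genes, and all 4 were in it. The group was put forward because Slc17a4 differed between genotypes in these libraries, so the genotype values below are a description and carry no test. Its choice did not rest on the treatment values. Earlier results of these data were known, however, when the members and the gene lists below were chosen.

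The study crossed a hepatocyte deletion with a drug in male mice of mixed strain, 11 weeks old, that all carried Gata4 fl/fl alleles. At 10 weeks they received AAV8-Tbg-Cre, an adeno-associated virus with Cre recombinase under the hepatocyte-directed Tbg promoter (Gata4LKO), or an empty AAV8 (control). Gata4 encodes a zinc-finger transcription factor. Cre and the loss of Gata4 cannot be told apart in this design, because the control virus had no Cre. GW3965 activates the liver X receptors (LXR), nuclear receptors for oxysterols. After 1 week the mice got 40 mg/kg of it, or vehicle (DMSO in canola oil), by gavage 17 h and once more 8 h before death, which followed 4 h of fasting. There were 4 control vehicle, 4 Gata4LKO vehicle, 4 control GW3965 and 5 Gata4LKO GW3965 libraries of frozen liver. Samples were grouped by title; in 8 libraries, those of the Gata4LKO vehicle and control GW3965 groups, the separate treatment label says the opposite.

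The SLC17 family moves anions across membranes. Slc17a1 (NPT1) was first described as a sodium-dependent phosphate transporter of kidney and liver, and it also exports urate and other organic anions. Slc17a3 (NPT4) is known in humans as a voltage-driven exporter of urate and organic anion drugs. Slc17a4 (NPT5) is known in humans as an intestinal organic anion transporter and as a transporter of thyroid hormone. Slc17a2 (NPT3) is expressed in liver and is the least characterised of the group. In humans, variants in this cluster are associated with the level of urate in blood; mice break urate down further with uricase, which their livers make.

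In the mm10 (GRCm38) build with GENCODE M21 annotation, the cluster spans 108017 bases. Slc17a2 (ENSMUSG00000036110) lies at chr13:23806993-23825180, Slc17a3 (ENSMUSG00000036083) at chr13:23839434-23860716 and Slc17a1 (ENSMUSG00000021335) at chr13:23867750-23895730, all on the plus strand. Slc17a4 (ENSMUSG00000021336) lies at chr13:23895890-23915009 on the minus strand, so that it and Slc17a1 point at each other. The gap between their annotated ends is 159 bases, against 7033 bases between Slc17a3 and Slc17a1 and 14253 bases between Slc17a2 and Slc17a3. No other annotated gene overlaps any of the 4, and no 50-base stretch of their transcripts occurs in another annotated gene or in another member, so reads of that length could be assigned to 1 gene by sequence. Whether reads were counted by strand was not given in the sources used here. Reads of Slc17a1 that ran past its annotated end into Slc17a4, or the reverse, would be counted for the neighbour if strand was ignored.

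The 250 bases before the RefSeq transcript starts are shown for Slc17a2, Slc17a3 and Slc17a1, in GRCm38.p6, plus strand, 5′ to 3′. For Slc17a2 and Slc17a3 they end at the GENCODE gene start, whereas both RefSeq starts of Slc17a1 lie downstream of its GENCODE start (chr13:23867750), so its windows are inside the annotated gene. Capitals mark the single match to a GATA factor motif, searched on both strands as the letters GATA with an A or a T before them and an A or a G after them.
Slc17a2, chr13:23806743-23806992: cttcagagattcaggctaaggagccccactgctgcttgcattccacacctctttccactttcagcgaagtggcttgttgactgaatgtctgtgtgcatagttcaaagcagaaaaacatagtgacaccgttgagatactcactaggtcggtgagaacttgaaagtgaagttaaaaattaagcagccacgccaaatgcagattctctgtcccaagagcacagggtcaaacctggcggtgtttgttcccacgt
Slc17a3, chr13:23839184-23839433: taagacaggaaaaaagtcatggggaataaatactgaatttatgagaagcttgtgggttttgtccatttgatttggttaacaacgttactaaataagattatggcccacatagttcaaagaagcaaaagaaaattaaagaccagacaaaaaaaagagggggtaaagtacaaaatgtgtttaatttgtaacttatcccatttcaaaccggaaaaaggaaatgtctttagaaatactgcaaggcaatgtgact
Slc17a1, chr13:23868768-23869017: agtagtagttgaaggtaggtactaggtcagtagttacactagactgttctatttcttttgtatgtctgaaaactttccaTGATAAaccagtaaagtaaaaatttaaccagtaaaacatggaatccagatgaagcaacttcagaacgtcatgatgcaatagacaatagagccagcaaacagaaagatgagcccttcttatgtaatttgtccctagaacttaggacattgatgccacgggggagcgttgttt
The RefSeq table held 3 of the 4 genes, with a second window for Slc17a1 (chr13:23870023-23870272). It had no entry for Slc17a4, so the motif counts do not cover that gene. TGATAA stood at -171 to -166 from the start in the first Slc17a1 window, 1 of 4 member windows, against 26.5% of all 32851 windows. The shorter core GATA, which that motif contains, was in 3 of 4 member windows and in 53.6% of all windows. The nuclear receptor half-site AGGTCA was in both Slc17a1 windows, at -227 to -222 and at -29 to -24, and in 14.02% of all windows. None of the 4 windows held the direct repeat of AGGTCA bound by LXR (0.0152% of all windows) or by HNF4 (0.0335%), the HNF1 half-site GTTAAT (6.43%) or TATAAA (12.4%). The 3 printed windows had a GC content of 47.2%, 32.8% and 38% in the order shown, against a median of 52.4% over all windows. These matches describe letters only.

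Reads in genes numbered 11.8 to 22.05 M per library. The mitochondrially encoded share of the normalized counts was 6.06% to 7.26% in 12 libraries and 15.6% to 32.6% in the other 5, which were 1 in control vehicle (replicate 1), 2 in control GW3965 (replicates 10, 13) and 2 in Gata4LKO GW3965 (replicates 17, 18). The Gata4 level did not separate the libraries labelled Gata4LKO from controls: its normalized count was 153 ± 27.3 in control vehicle (SD, n = 4), 194 ± 44.2 in Gata4LKO vehicle (n = 4), 221 ± 44.1 in control GW3965 (n = 4) and 219 ± 41.2 in Gata4LKO GW3965 (n = 5). A whole-gene count also holds exons that a deletion leaves in place and is a partial check of the labels. With the groups as titled, 10 of 12 known LXR targets rose with GW3965 in control by limma, against 0.605% of all tested genes, and 5 in Gata4LKO, against 0.202%. In Gata4LKO 11 of the 12 had an unadjusted limma p below 0.05, against 12% of all genes. DESeq2 called 10 there, against 195 of 13118 genes. The difference between the genotypes' responses was called for 0 of the 12 by limma, edgeR or DESeq2. At an unadjusted limma p below 0.05 there were 0. For that term limma called 0.0149% of all genes and 4.65% had an unadjusted p below 0.05. These counts are near that background, so they do not show equal responses.

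Hepatocyte RNA dominated the samples. Alb, which encodes serum albumin, had 895197 to 1722490 normalized counts per library, and Hnf4a, a hepatocyte transcription factor, 8605 to 14634. Kidney and intestine are the other organs in which these transporters are known. The kidney marker Umod did not exceed 2.23 normalized counts in any library and Slc34a1, the proximal tubule phosphate transporter, did not exceed 0.833. The 7 kidney markers in the table together had 5.78 to 46.3 normalized counts per library. Of 10 enterocyte markers, 6 were in the table and 4 passed the filter on low values described below. Their sum was 7492 to 17188 normalized counts per library, most of it from Mttp and Apoa4, lipoprotein genes that liver also expresses, while Vil1 and Cdhr2 stayed below 10 in every library. In bulk liver, fewer cells of a type and less RNA per cell cannot be told apart.

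All values are the authors' normalized counts, which are reads divided by a size factor per library; for levels compared between genes they are divided by the length of all annotated exons in kb. Per kb, Slc17a2 was the most abundant member in each group, with 596 ± 186 (SD, n = 4) in control vehicle and 470 ± 69.7 (n = 5) in Gata4LKO GW3965. Slc17a3 came second, at 200 ± 23.7 and 135 ± 29.1 in the same groups. Slc17a1 and Slc17a4 followed, at 107 ± 9.91 and 105 ± 15.8 per kb in control vehicle, a difference within their spread. In Gata4LKO vehicle Slc17a1 was above Slc17a4 (69.3 ± 7.16 against 44.7 ± 10.7 per kb), and in control GW3965 it was below it (49.04 ± 17.0 against 107 ± 20.9 per kb). With the longest transcript as the length, Slc17a4 came before Slc17a1 in control vehicle (143 against 126 per kb). The levels per kb rest on 62 to 5406 reads per gene and library.

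Slc17a4 separated the genotypes in every library. In control vehicle the 4 libraries had 605, 566, 765 and 569 normalized counts, and in Gata4LKO vehicle 311, 331, 197 and 230. With GW3965 the control libraries had 799, 517, 570 and 679, and the Gata4LKO libraries 220, 222, 196, 243 and 242. The 8 control libraries thus lay at 517 to 799 and the 9 libraries labelled Gata4LKO at 196 to 331, with no overlap. The group means were 626 ± 94.5 and 267 ± 64.1 with vehicle (SD, n = 4 each), a ratio of control to Gata4LKO of 2.34. With GW3965 they were 641 ± 125 (n = 4) and 225 ± 19.3 (n = 5), a ratio of 2.86. On the log2(normalized count + 1) scale the genotype difference was -1.25 ± 0.17 (SE) with vehicle and -1.49 ± 0.16 with GW3965, without a test. Within each genotype the order of the vehicle and GW3965 groups was not resolved, since their libraries overlapped.

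**Figure D1:**
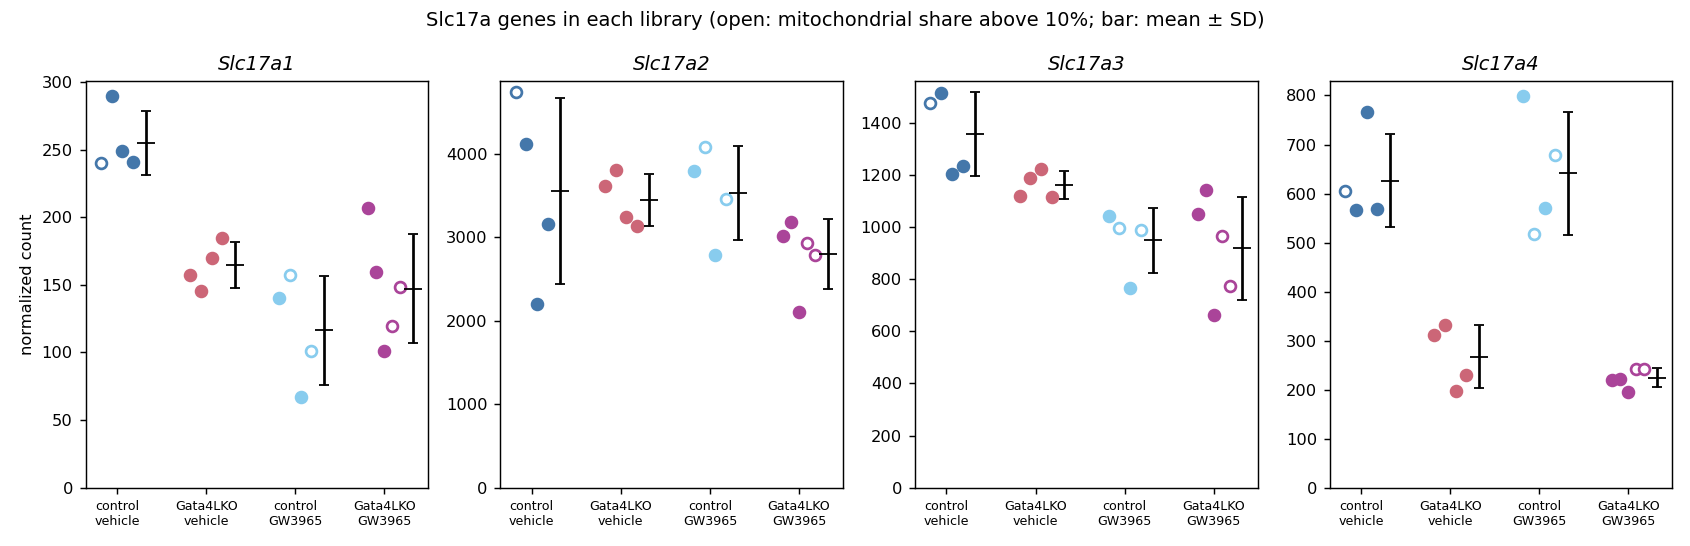
Normalized counts (y axis, linear from 0) of the 4 genes in each of the 17 libraries, by group (x axis); open symbols are libraries with more than 10% of their counts from mitochondrially encoded genes, and the bars are the mean ± SD. Slc17a4 splits by genotype (517 to 799 against 196 to 331), Slc17a1 is highest in the 4 control vehicle libraries, Slc17a3 is lower with GW3965 in control, and the groups of Slc17a2 overlap.

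Of the 4 genes, Slc17a1 and Slc17a4 had no overlap between genotypes with vehicle, and Slc17a4 alone had none with GW3965. Among the 13379 genes that passed the filter on low values (10 or more normalized counts in 4 libraries or more), 3.58% were lower in Gata4LKO without overlap with vehicle and 1.14% with GW3965. All 4 genes passed that filter. The choice of the genes used this contrast, so nothing is read from these counts. The pseudogene Gm5345, which was near 0 in the 4 Gata4LKO vehicle libraries and in replicates 9 and 10 of control GW3965, did not run with Slc17a4: those 2 control libraries had 799 and 517 normalized counts of Slc17a4. The 5 Gata4LKO GW3965 libraries had 23.1 to 101 of Gm5345 and 196 to 243 of Slc17a4. The genotype difference of Slc17a4 without the 5 libraries of high mitochondrial share was -1.26 with vehicle and -1.66 with GW3965.

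Slc17a1 fell with GW3965 in control livers. Its 4 control vehicle libraries had 240, 290, 249 and 241 normalized counts, and the 4 control GW3965 libraries 140, 157, 67.3 and 101. Each treated library was below each vehicle library. The means were 255 ± 23.5 and 116 ± 40.2 (SD, n = 4 each). The log2 difference was -1.19 ± 0.24 (SE; limma adjusted p = 0.0240), or a fold of 0.438 (95% interval 0.310 to 0.617). It was the 1 member of 4 called in this comparison, where 0.792% of the 13379 genes were called and 0.187% were called lower. EdgeR on the reads recovered from the table gave an adjusted p of 0.0329. In the authors' deposited table the log2 fold change of Slc17a1 was -1.13 with an adjusted p of 0.000738. The limma call was lost in the fits without replicate 2 (adjusted p = 0.0754), 3 (0.0756) or 4 (0.0589) of control vehicle or replicate 12 of control GW3965 (0.0661). It was also lost with the 2 groups alone in the fit (adjusted p = 0.102) and without the libraries of high mitochondrial share, where the difference was -1.40 (adjusted p = 0.0662).

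In libraries labelled Gata4LKO, no such difference of Slc17a1 was detected. With vehicle they had 157, 145, 170 and 185 normalized counts, all below the control vehicle libraries, and with GW3965 they had 206, 159, 101, 119 and 148. The means were 164 ± 17.0 (SD, n = 4) and 147 ± 40.4 (n = 5), which differed by -0.20 ± 0.22 on the log2 scale (limma adjusted p = 0.700; 95% interval -0.67 to 0.27). In order of level the groups ran control vehicle, Gata4LKO vehicle, Gata4LKO GW3965 and control GW3965. The first stood apart from the rest, and each pair of the other 3 groups overlapped. The genotype difference was -0.63 ± 0.24 with vehicle and 0.36 ± 0.22 with GW3965, described without a test. The comparisons of genotype with vehicle and of GW3965 in control share the same 4 control vehicle libraries.

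**Figure D2:**
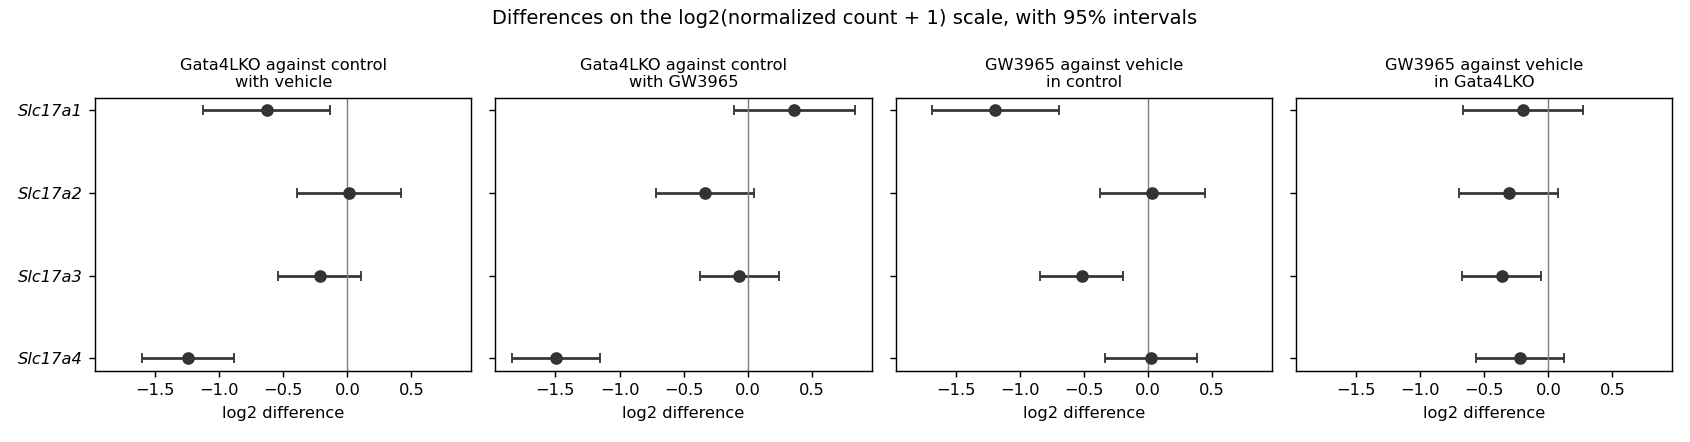
Log2 differences (x axis, on the log2(normalized count + 1) scale) of the 4 genes (y axis) in 4 comparisons, with points for the limma estimate and bars for the 95% interval. Slc17a4 is at -1.25 and -1.49 for genotype and near 0 for GW3965 in control (0.03), while Slc17a1 is at -1.19 for GW3965 in control.

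Slc17a3 had lower values with GW3965 in both genotypes. The control libraries had 1476, 1512, 1202 and 1234 normalized counts with vehicle and 1043, 997, 764 and 988 with GW3965, without overlap. The means were 1356 ± 161 and 948 ± 125 (SD, n = 4 each), a log2 difference of -0.52 ± 0.15 that did not pass over all genes (limma adjusted p = 0.181; unadjusted p = 0.00335). Among all 13379 genes, 2.71% were lower with GW3965 in control without overlap. The Gata4LKO libraries had 1117, 1187, 1223 and 1116 with vehicle and 1048, 1141, 662, 965 and 773 with GW3965, which overlapped by 1 library. Their log2 difference was -0.37 ± 0.15 (limma adjusted p = 0.341).

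Averaged over both genotypes, Slc17a3 and Slc17a1 fell with GW3965. The log2 difference of Slc17a3 was -0.44 ± 0.11 (limma adjusted p = 0.0395) and that of Slc17a1 was -0.69 ± 0.16 (limma adjusted p = 0.0353). In this comparison 1.78% of the 13379 genes were called and 0.441% were called lower. Both calls were close to the threshold: that of Slc17a3 was lost in 12 of 17 fits that left out 1 library (adjusted p up to 0.0945, without replicate 2 of control vehicle) and that of Slc17a1 in 11 of 17 (up to 0.0854, without replicate 8 of Gata4LKO vehicle). Without the 5 libraries of high mitochondrial share the difference of Slc17a3 was again -0.44 (adjusted p = 0.143). Both genes were also called by edgeR and by DESeq2 on the recovered reads. Of all genes edgeR called 231 of 13379 in this comparison and DESeq2 527 of 13118.

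Slc17a2, the most abundant member per kb, had no resolved difference. In control vehicle it had 4737, 4114, 2205 and 3155 normalized counts (coefficient of variation 31.2%), and in Gata4LKO vehicle 3608, 3804, 3237 and 3132. With GW3965 the control libraries had 3788, 4084, 2786 and 3457, and the Gata4LKO libraries 3009, 3178, 2102, 2925 and 2786. The group means ran from 2800 ± 415 (SD, n = 5) in Gata4LKO GW3965 to 3553 ± 1110 (n = 4) in control vehicle, and each pair of groups overlapped. GW3965 gave a log2 difference of 0.03 ± 0.19 in control (limma adjusted p = 0.994; 95% interval -0.37 to 0.44) and -0.31 ± 0.18 in Gata4LKO (limma adjusted p = 0.482). The genotype difference was 0.01 ± 0.19 with vehicle and -0.33 ± 0.18 with GW3965.

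No difference of Slc17a4 with GW3965 was resolved within a genotype. The log2 difference was 0.03 ± 0.17 in control (limma adjusted p = 0.994; 95% interval -0.33 to 0.39) and -0.22 ± 0.16 in Gata4LKO (limma adjusted p = 0.554). In Gata4LKO livers 0 of the 4 genes were called for GW3965 by limma, edgeR or DESeq2, and 1 had an unadjusted limma p below 0.05, which was Slc17a3. Of all genes, 0.247% were called there and 12% had an unadjusted p below 0.05.

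The GW3965 response of Slc17a1 differed between genotypes by 1.00 ± 0.32 on the log2 scale, which did not pass over all genes (limma adjusted p = 0.770; unadjusted p = 0.00674). In the authors' deposited table this difference was 0.98 with an adjusted p of 0.388. For Slc17a2 the difference of responses was -0.34 ± 0.27, for Slc17a3 0.15 ± 0.21 and for Slc17a4 -0.25 ± 0.24 (limma adjusted p = 0.997 each). Thus 0 of 4 members were called by limma, edgeR or DESeq2, and 1 had an unadjusted limma p below 0.05. Limma called 0.0149% of all genes for this term, and 4.65% had an unadjusted p below 0.05.

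Slc17a1 and Slc17a4, whose annotated ends are 159 bases apart, took different places in the same libraries. The 4 control GW3965 libraries had low Slc17a1 (67.3 to 157) with high Slc17a4 (517 to 799). The Gata4LKO vehicle libraries had 145 to 185 of Slc17a1 with 197 to 331 of Slc17a4. The control vehicle libraries were high for both.

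**Figure D3:**
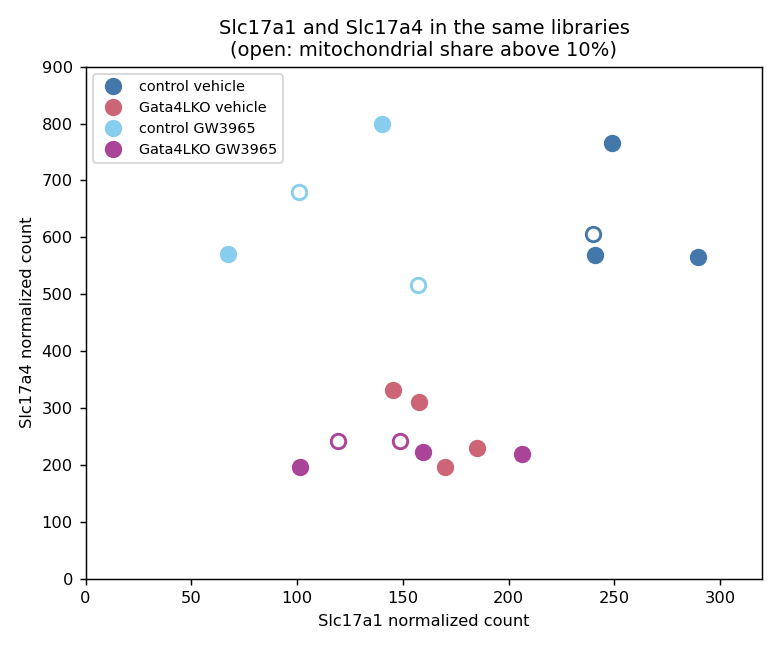
Normalized counts of Slc17a1 (x axis) and Slc17a4 (y axis) in the 17 libraries, colored by group, with open symbols for libraries of high mitochondrial share. The control GW3965 libraries lie at the upper left (Slc17a1 67.3 to 157, Slc17a4 517 to 799) and the control vehicle libraries at the upper right, while the Gata4LKO libraries lie at 196 to 331 for Slc17a4.

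Once the group means were removed, Slc17a2 and Slc17a3 varied together among libraries of the same group. Over the 17 libraries the Pearson r of their log2 deviations was 0.740 (adjusted p = 0.00186 over 6 pairs; two-sided permutation within groups) and the Spearman rho was 0.804 (adjusted p = 0.0030). Without the 2 libraries farthest from the median of Slc17a2 the r was 0.689. Among the 12 libraries of low mitochondrial share it was 0.808 (adjusted p = 0.0697 by permutation). Slc17a1 had an r of 0.658 with Slc17a3 (raw p = 0.0240, adjusted p = 0.0650 by permutation; rho 0.559) and of 0.469 with Slc17a2 (raw p = 0.0325, adjusted p = 0.0650 by permutation; rho 0.407). Within the low-share libraries these were 0.821 (adjusted p = 0.194 by permutation) and 0.587 (adjusted p = 0.255). Slc17a4 had an r of -0.03 with Slc17a1, 0.00 with Slc17a2 and 0.08 with Slc17a3 (adjusted p = 1.00 each by permutation). All 4 genes were read from the same libraries, so depth and RNA quality are shared by each point.

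**Figure D4:**
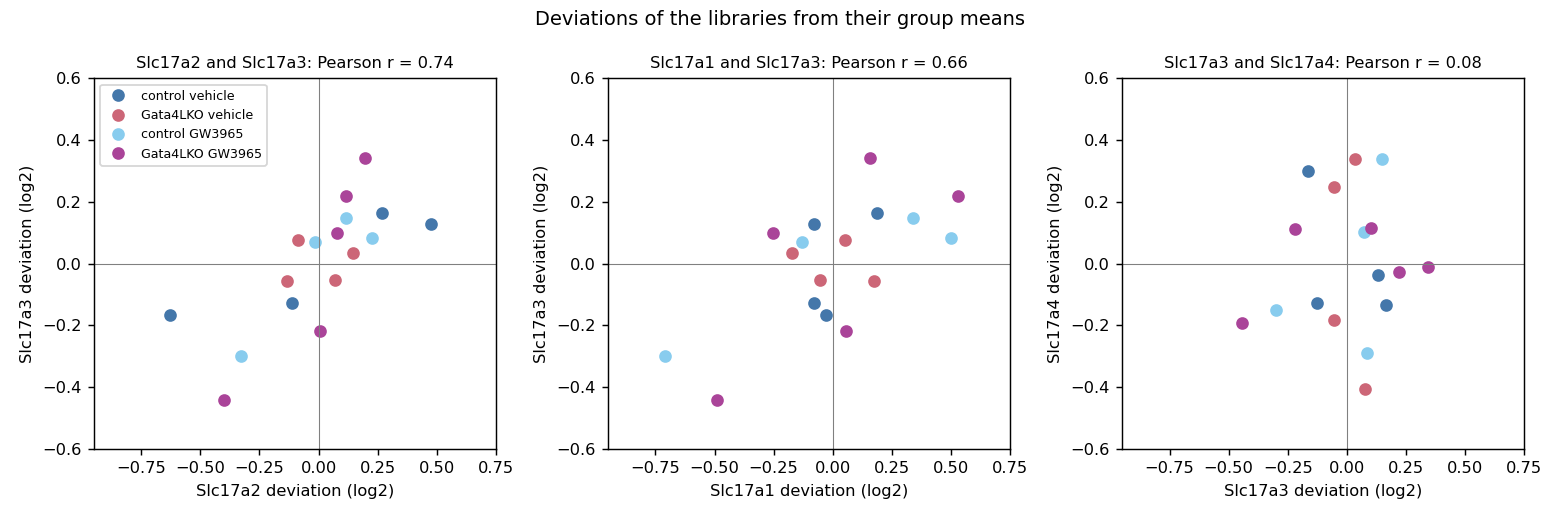
Deviation of each library from its group mean on the log2(normalized count + 1) scale for 3 pairs of genes, colored by group. The points rise together for Slc17a2 and Slc17a3 (r = 0.74) and for Slc17a1 and Slc17a3 (r = 0.66), and show no slope for Slc17a3 and Slc17a4 (r = 0.08).

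Few genes around the cluster passed the filter. Of 42 other genes annotated within 250 kb of its ends, 20 were in the table and 5 passed the filter, all upstream of Slc17a2. They were the linker histone genes Hist1h1c and Hist1h1e, the core histone genes Hist1h2bc and Hist1h2be, and Hfe, which encodes the haemochromatosis protein that regulates iron uptake. Hist1h1c, at chr13:23738808-23740367, fell with GW3965 in control by 0.80 ± 0.16 on the log2 scale (limma adjusted p = 0.0218), and averaged over genotypes by 0.55 (limma adjusted p = 0.00987). Hfe had a difference of -0.33 ± 0.12 in control (limma adjusted p = 0.300). Averaged over genotypes it was -0.29 ± 0.08 (limma adjusted p = 0.0739). In that average limma and edgeR called 1 of the 5 neighbours and DESeq2 called 2, Hist1h1c and Hfe. Of all genes limma called 1.78% there, edgeR 231 of 13379 and DESeq2 527 of 13118. In control limma, edgeR and DESeq2 each called 1 of the 5. Of all genes they called 0.792%, 101 of 13379 and 228 of 12859. For genotype, the 5 neighbours had log2 differences of -0.85 to -0.06 with vehicle and -0.01 to 1.05 with GW3965, against -1.25 and -1.49 for Slc17a4. The values -0.85 ± 0.56 (SE, Hist1h2be) and 1.05 ± 0.64 (Hist1h1e) came from genes near the filter, with mean normalized counts of 11.6 and 9.9. Hist1h2bc, Hfe and Hist1h1c, with means of 559 to 1089, lay at -0.38 to -0.06 with vehicle and -0.01 to 0.36 with GW3965. None of the 5 was called for genotype by limma, edgeR or DESeq2, with 0 and 1 at an unadjusted limma p below 0.05 for vehicle and GW3965. Among the 13379 genes as a whole, limma calls for genotype came to 0.0149% with vehicle and 0.0598% with GW3965.

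**Figure D5:**
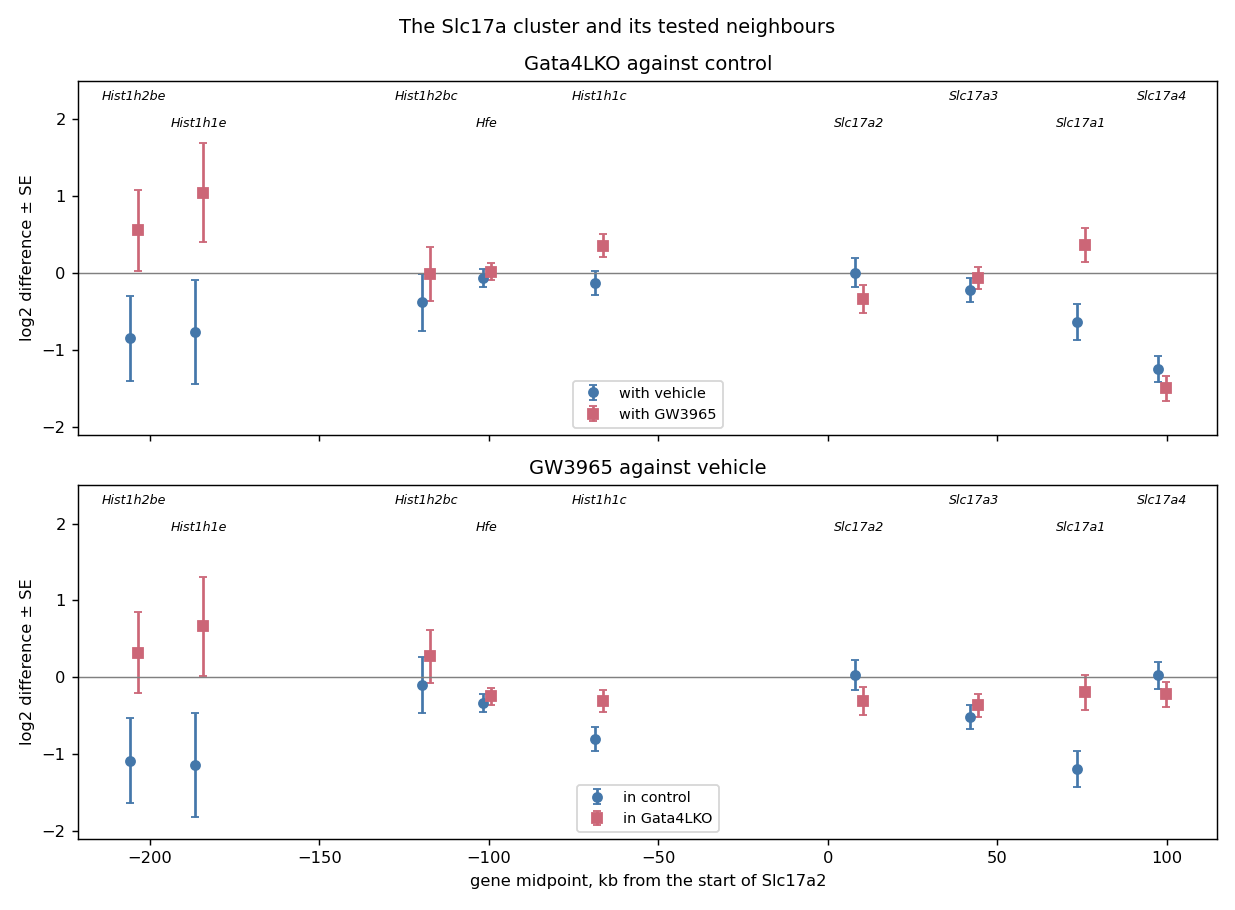
Log2 differences ± SE (y axis) of the cluster and its 5 tested neighbours by the position of the gene midpoint in kb from the start of Slc17a2 (x axis), for genotype (top; circles with vehicle, squares with GW3965) and for GW3965 (bottom; circles in control, squares in Gata4LKO). At the right end, Slc17a4 is near -1.25 and -1.49 for genotype while Slc17a3 and Slc17a2 lie between -0.33 and 0.01.

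The genes whose levels ran most like those of each member were found among 9907 genes with a mean normalized count of at least 50, by Pearson r over the 17 libraries, given here as a description. For Slc17a4 they were Gpr155, which encodes a lysosomal membrane protein (r = 0.930), the small GTPase gene Rnd2 (0.892) and the aldo-keto reductase gene Akr1c19 (0.879). Gpr155 was at 1045 ± 103 in control vehicle and 611 ± 120 in Gata4LKO vehicle (SD, n = 4 each), and at 946 ± 153 (n = 4) and 523 ± 76.5 (n = 5) with GW3965. With group means removed the nearest genes to Slc17a4 were Lrch3 (0.754), Nudt13 (0.738) and Rnd2 (0.737). For Slc17a3 they included F11, which encodes coagulation factor XI (0.906), and Klhl2 (0.874). For Slc17a1 they were Gm49201 (0.865), Plg, which encodes plasminogen (0.838), and 9130023H24Rik (0.835). For Slc17a2 they were Tox4 (0.806), the steroid dehydrogenase gene Hsd17b6 (0.768) and Camk2g (0.763).

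Other members of the SLC17 family did not pass in any comparison. Of the 5 outside the cluster, 3 were in the table and all 3 passed the filter. Slc17a5, which encodes the lysosomal sialic acid exporter sialin, had 211 to 222 normalized counts per kb as group means. Slc17a8, which encodes the vesicular glutamate transporter VGLUT3, had 307 ± 66.0 per kb in control vehicle and 166 ± 59.6 in Gata4LKO vehicle (SD, n = 4 each), which differed by -0.93 ± 0.33 on the log2 scale (limma adjusted p = 0.573). Slc17a9, which encodes the vesicular nucleotide transporter, had 12.5 to 17.2 per kb. Limma, edgeR and DESeq2 each called 0 of the 3 for genotype and for GW3965. At an unadjusted limma p below 0.05 there was 1 for genotype with vehicle, where 6.15% of all genes were, and 1 for GW3965 in Gata4LKO (12% of all genes). With 0.0149% to 1.78% of all genes called by limma in the comparisons, a count of 0 among 3 is near that background.

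Genes that handle the substrates of these transporters included single calls, read against 0.792% of all genes called by limma for GW3965 in control and 1.78% averaged over genotypes. For genotype the limma shares were 0.0149% with vehicle and 0.0598% with GW3965. The lists were drawn up with earlier results of these data known. Of 8 tested phosphate transport genes, limma, edgeR and DESeq2 called 0 for GW3965 in control or for either genotype comparison, and the largest difference by GW3965 in control was that of Slc37a4, the glucose-6-phosphate transporter (-0.52 ± 0.33, limma adjusted p = 0.764). Of 12 genes of urate and purine breakdown, 1 rose with GW3965 in control: Uox, which encodes uricase, went from 40798 ± 6471 to 73732 ± 13126 normalized counts (SD, n = 4 each; log2 0.85 ± 0.16, limma adjusted p = 0.0217). Averaged over genotypes Uox rose by 0.69 ± 0.11 (limma adjusted p = 0.00299) and Aox3, an aldehyde oxidase, fell by 0.61 ± 0.15 (limma adjusted p = 0.0455). The median difference of the 12 genes for GW3965 in control was -0.10, with 9 negative, against -0.01 over all genes.

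Of 23 genes of hepatic organic anion transport, Abcc4, an export pump for bile acids and nucleotides, rose with GW3965 in control from 39.7 ± 1.58 to 137 ± 54.8 normalized counts (SD, n = 4 each; log2 1.66 ± 0.33, limma adjusted p = 0.0233). Averaged over genotypes Abcc4 rose by 1.43 ± 0.22 (limma adjusted p = 0.00201). It was the 1 gene of the 23 that limma called in either comparison, and the median of the 23 was -0.02 for GW3965 in control. For thyroid hormone transport and action, 3 of 12 genes were called averaged over genotypes, 2 higher and 1 lower, against 1.78% of all genes. Among them Gpd2, the mitochondrial glycerol-3-phosphate dehydrogenase, rose by 0.64 ± 0.11 (limma adjusted p = 0.00511) and the lipogenic gene Thrsp by 1.25 ± 0.25 (limma adjusted p = 0.0128). EdgeR did not call Aox3 in that comparison. For either genotype comparison, limma and edgeR called 0 genes of these 3 lists. Limma called 0.0149% of all genes with vehicle and 0.0598% with GW3965, so a count of 0 is near that background. DESeq2 called 0 of the lists with vehicle, where it called 50 of 11821 genes, and 1 with GW3965, where it called 80 of 13118. That gene was Aox3, whose limma difference was -0.91 ± 0.21 (limma adjusted p = 0.141).

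Other cell types of the liver were measured beside these values. The 8 Kupffer cell markers summed to 2055 to 2869 normalized counts in control vehicle, 3576 to 4121 in Gata4LKO vehicle, 3584 to 6204 in control GW3965 and 3703 to 5530 in Gata4LKO GW3965. The control vehicle libraries, which had the highest Slc17a1, thus had the lowest Kupffer sums. For GW3965 in control limma and edgeR each called 1 of the 8 Kupffer markers and DESeq2 3. Of all genes limma called 0.792% there, edgeR 101 of 13379 and DESeq2 228 of 12859. Cd5l was among those that edgeR and DESeq2 called. For genotype with vehicle limma and edgeR called 0 of the 8 Kupffer markers and DESeq2 2. Of all genes limma called 0.0149% there, edgeR 2 of 13379 and DESeq2 50 of 11821. At an unadjusted limma p below 0.05 there were 6 of the 8 for genotype with vehicle, against 6.15% of all genes. Stellate markers summed to 3108 to 3889 in control vehicle, 2955 to 4314 in Gata4LKO vehicle, 3114 to 4081 in control GW3965 and 4360 to 6150 in Gata4LKO GW3965. For GW3965 in Gata4LKO limma and edgeR called 0 of these 7 and DESeq2 2, Dcn and Des. For genotype with GW3965 limma and edgeR called 0 and DESeq2 1, Dcn. Of all genes DESeq2 called 195 and 80 of 13118 in these, and limma 0.247% and 0.0598%. At an unadjusted limma p below 0.05 there were 4 and 3 of the 7, against 12% and 865 of 13379 genes. For GW3965 in control and genotype with vehicle limma, edgeR and DESeq2 called 0 of the 7. The 9 hepatocyte markers in the table had a median log2 difference of -0.15 for genotype with vehicle, 9 of 9 negative, and of -0.02 with GW3965, 5 of 9 negative. For GW3965 in control their median was -0.11, with 6 of 9 negative. Single hepatocyte markers differed by -0.57 to -0.02 for genotype with vehicle, -0.54 to 0.07 with GW3965 and -0.38 to 0.12 for GW3965 in control. Sinusoidal endothelial markers summed to 2775 to 3477 normalized counts in control vehicle, 2817 to 3708 in Gata4LKO vehicle, 3038 to 5190 in control GW3965 and 3518 to 4979 in Gata4LKO GW3965. Their log2 differences with GW3965 were positive for 7 of 7 in control (median 0.26) and for 7 of 7 in Gata4LKO (median 0.42), beside the GW3965 differences of Slc17a1 and Slc17a3 given above. Limma, edgeR and DESeq2 called 0 of the 7 in each, where limma called 0.792% and 0.247% of all genes. At an unadjusted limma p below 0.05 there were 0 and 4, against 1199 of 13379 genes and 12%. Averaged over genotypes, limma and edgeR called 0 of the 7 and DESeq2 called 1, Pecam1. Of all genes limma called 1.78% there, edgeR 231 of 13379 and DESeq2 527 of 13118. In that comparison 4 had an unadjusted limma p below 0.05, against 2050 of 13379 genes. Cholangiocyte markers summed to 392 to 812 per library. Among enterocyte markers, Fabp2, a fatty acid-binding protein also made by liver, was lower in Gata4LKO with GW3965 (-1.89 ± 0.29, limma adjusted p = 0.0205). It was the 1 of 4 tested enterocyte markers that limma called there, against 0.0598% of all genes. With vehicle limma called 0 of the 4, whose lowest difference was -1.65 (smallest limma adjusted p = 0.0737). DESeq2 called Fabp2 and Mttp in both genotype comparisons, against 50 of 11821 genes with vehicle and 80 of 13118 with GW3965. Whether these markers had a part in the differences of the transporters was not tested.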

How the data were processed

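The authors deposited 1 table of normalized counts for the 17 liver libraries and tables of comparisons. RNA was extracted with TRIzol and columns and libraries were made with a KAPA mRNA kit, per the labels' protocols. Per the submitters' processing notes, STAR 2.6.0c, FastQC, DESeq2 and the mm10 build were used, while the counter and its annotation were not given in the sources used here. Those deposited values are a signal, reads divided by 1 size factor per library: 100% were within 0.05 of a whole read (largest distance 0.000522). Per the file headers, the comparison tables hold each gene's log2 fold change and adjusted p-value. Libraries held 11.8 to 22.05 M recovered reads, and the labels do not say that each came from a separate mouse, so p-values measure the spread between these libraries. The series design text gives a different age from the sample labels, which were used.

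Here, limma 3.58.1 (R 4.3.3, limma-trend) was fitted to log2(normalized count + 1) of all 17 libraries, with 1 coefficient per group. A gene was kept with 10 or more in 4 libraries or more (13379 genes), p-values were adjusted by Benjamini-Hochberg over all of them, and a call needed an adjusted p below 0.05. Fold changes on this scale understate those of low genes. The fit was tested on simulated data for the comparisons between single groups, but not for the average over genotypes or the interaction. Alternatives were pseudocounts of 0.5 and 5, no filter, edgeR 4.0.16 and DESeq2 1.42.0 on recovered reads, rescaling without mitochondrially encoded genes, the compared groups alone, and leaving out libraries. Correlations used 100000 permutations within groups.

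Members and lists were chosen with earlier results of these data known. Named genes were the 4 members, filtered neighbours within 250 kb, the 3 genes most alike to each member, and list members past the threshold or else with the largest difference. A gene that these rules name is not reported here.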

Additional observations from a re-analysis of the deposited data

How the results depend on the processing

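Of 120 treatment and interaction values of the members under alternatives other than leaving out 1 library, 113 kept their direction and side of the threshold, as did 237 of 272 with 1 library left out. Of the genotype values, which have no test, 60 of 64 and 131 of 136 kept their direction. The others were near 0: Slc17a2 with vehicle (0.01) became -0.043 with DESeq2, -0.035 with edgeR and down to -0.20 without replicate 3 of control vehicle, and Slc17a3 with GW3965 (-0.064) became 0.056 rescaled, 0.052 without the 5 libraries of high mitochondrial share and 0.047 without replicate 16. The cause of the changes was not tested. Slc17a1 for GW3965 in control lost its call with the compared groups alone (-1.19, adjusted p = 0.102) and without the high-share libraries (-1.40, adjusted p = 0.0662). Averaged over genotypes, Slc17a1 lost it without those libraries (-0.77, adjusted p = 0.0824), and Slc17a3 without them (-0.44, adjusted p = 0.143) and without the filter (-0.44, adjusted p = 0.0557). Slc17a2 for GW3965 in control, near 0, changed sign with edgeR (-0.0063) and DESeq2 (-0.0092). Leaving out each library in turn gave -1.36 to -0.96 for Slc17a1 in control and -0.78 to -0.58 averaged, -0.48 to -0.39 for Slc17a3 averaged, -0.18 to 0.19 for Slc17a2 in control and -0.087 to 0.13 for Slc17a4 in control. Where a library left its group with fewer samples, the spread was pooled over all groups.

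The number of genes called over the whole table also depended on the processing. For GW3965 in control the 106 became 228 with DESeq2, 57 without the filter, 19 with the compared groups alone, 64 without the high-share libraries, and 22 to 129 with 1 library left out. For GW3965 in Gata4LKO the 33 became 195 with DESeq2 and 6 to 78 with 1 library left out. Averaged over genotypes the 238 became 527 with DESeq2 and 142 to 335 with 1 library left out. For the interaction the 2 became 26 with DESeq2, 0 with edgeR (621 at an unadjusted p below 0.05), 1 without the high-share libraries and 0 to 9 with 1 library left out. For genotype with vehicle the 2 became 50 with DESeq2, 20 with the compared groups alone, 4 rescaled without mitochondrial genes (2 higher and 2 lower, against 0 and 2), 14 without the high-share libraries and 0 to 9 with 1 library left out. For genotype with GW3965 the 8 became 80 with DESeq2, 5 with edgeR, 1 with the compared groups alone and 2 to 21 with 1 library left out; rescaled, the split was 3 higher and 3 lower against 2 and 6. That rescaling moved the median genotype difference of all genes from -0.01 to 0.11 with vehicle and from -0.01 to 0.10 with GW3965, and Slc17a4 was then at -1.13 and -1.37.

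The correlation of Slc17a2 and Slc17a3 missed the threshold in the 12 low-share libraries (r = 0.808, adjusted p = 0.0697 by permutation) and was 0.675 to 0.810 with 1 library left out. That of Slc17a1 was 0.338 to 0.614 with Slc17a2, 0.551 to 0.715 with Slc17a3 and -0.20 to 0.17 with Slc17a4. The last changed sign when rescaled (0.055) and in the low-share libraries (0.226). Slc17a2 and Slc17a4 ran from -0.11 to 0.39 and changed sign with a pseudocount of 5 (-0.0022), and Slc17a3 and Slc17a4 ran from -0.092 to 0.19.

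No paired analysis was possible because the groups share no replicate number. The number of libraries, 4 or 5 a group, limits what could be called. No library stood far from its group in 28 sets of the SLC17 genes tested by Dixon's criterion.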
